A study of Arabidopsis thaliana with 8 samples.

Results

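The response of wild-type rosettes of *Arabidopsis thaliana* to the herbicide imazethapyr is given for every gene whose FPKM reached 1 in WT IM or in WT control, which was 18424 of 32474 genes with a value in both groups and of 34133 listed for the series. FPKM is a transcript level, the mapped fragments of a gene corrected for its length and for the size of the library. WT IM rosettes had been treated with 10.6 g/ha imazethapyr together with 0.5% v/v of the adjuvant Dash and were collected 48 h later. WT control rosettes, labelled mock, belonged to the same Col-0 wild type and were also collected at 48 h. Plants of both groups were 3 weeks old. Either group had 2 libraries, and a library held the whole rosettes of a pair of plants. Whether the controls received Dash is not stated, so herbicide and adjuvant cannot be told apart. The deposited values are 1 FPKM per gene and group, pooled by the authors over the 2 libraries. They leave no spread between replicates, so no test was made, and "at least 2-fold" below is a rule of size and not of significance.

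Imazethapyr blocks acetolactate synthase in the plastid, the first enzyme that the synthesis of valine, leucine and isoleucine shares, and treated plants stop growing well before they die. Growth of a rosette draws on photosynthesis, on loosening and synthesis of cell walls, and on lipids for membranes and cuticle. Leaves short of carbon or entering senescence instead break down starch, lipids and amino acids and export what is released, under the control of NAC, WRKY, bZIP and other transcription factors. The transcript of the target itself, *CSR1* (AT3G48560), had an FPKM of 193 in WT IM and 293 in WT control, a log2 ratio of -0.60. In whole rosettes, fewer cells of a type and less RNA per cell cannot be told apart.

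Of the 18424 genes, 2766 (15%) were at least 2-fold higher in WT IM and 3520 (19.1%) at least 2-fold lower, and 12138 lay within 2-fold. At least 4-fold, 1098 genes (5.96%) were higher and 1261 (6.84%) lower, and at least 10-fold, 549 (2.98%) were higher and 327 (1.77%) lower. The median log2 ratio of WT IM over WT control was 0.01, with 5% of genes below -2.31 and 5% above 2.28. Among them 105 genes are listed at 0 in WT control and 44 at 0 in WT IM. These were counted as past the fold and given no ratio. The sum of FPKM over the complete part of the table was 706415 in WT IM and 952514 in WT control. When both groups were scaled to the same sum, every log2 ratio moved up by 0.43, and 4837 genes were then at least 2-fold higher and 2301 lower, so that 67.8% of the genes past 2-fold were higher in place of 44.0%. Genes on chromosome 5 from AT5G46210 onwards are represented only where the authors called them in this comparison, which for the genes named below concerns *AT5G51440*, *PGM*, *PFK2*, *ATTPPA*, *KAT5*, *ATSDI1*, *SWEET13*, *LTP3*, *LTP4*, *TCH4*, *PME5*, *COB*, *OVA2*, *ARR6* and *ARF2*. Scaling to the same sum and centring on the reference genes or the median each shift every ratio equally, by at most 0.43 in log2. A median at least 0.5 away from 0, as in 38 of 86 gene lists and families, keeps its sign under them by construction. Directions are stated below for lists of that size, and medians nearer to 0 are given as values. Of the 8 reference genes, *UBQ10* stood at 1675 in WT IM and 712 in WT control and *ACT2* at 184 and 501 in the same order, while the median of the 8 was -0.12.

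**Figure D1:**
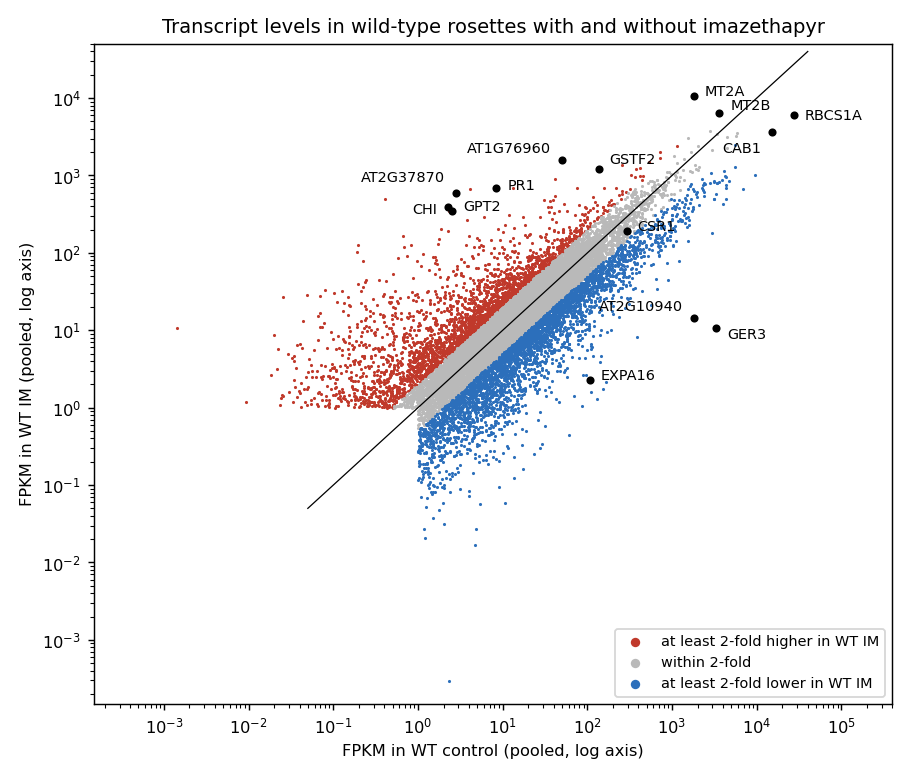
Pooled FPKM of each gene in WT IM (vertical, log axis) against WT control (horizontal, log axis), for the 18275 of 18424 genes above 0 in both groups, with the line of equal values and 14 named genes. The herbicide target *CSR1* lies inside the band of 2-fold, while *GER3* and *AT2G10940* lie far below it and *GPT2*, *CHI* and *AT2G37870* far above it.

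The largest differences in FPKM belonged to the most abundant transcripts of the leaf, which were lower in WT IM. *RBCS1A* (AT1G67090), a small subunit of Rubisco, had 6115 in WT IM and 27669 in WT control. *CAB1* (AT1G29930), which binds chlorophyll in the light-harvesting antenna, had 3684 in WT IM and 15154 in WT control. The other 8 of the 10 largest differences in this direction were the remaining Rubisco small subunits *RBCS1B*, *RBCS2B* and *RBCS3B*, the carbonic anhydrase *CA1*, the plastocyanin *DRT112*, the ferredoxin *FED A*, the photosystem I subunit *PSAG* and the envelope protein *OEP6*, with log2 ratios between -3.33 and -2.12. The Rubisco copies are alike in sequence and may share reads, so their separate values are uncertain. Of the 84 genes with a mean FPKM of at least 1000 over both groups, 50 (59.5%) were at least 2-fold lower and 5 (5.95%) at least 2-fold higher. All 8 leaf marker genes were at least 2-fold lower in WT IM, with a median log2 ratio of -2.07, yet they still summed to an FPKM of 13989 in WT IM, against 64151 in WT control. Of 9 root markers with a value 5 were expressed at an FPKM of at least 1, summing to 34.6 in WT IM and 95.2 in WT control, and of 9 flower and pollen markers *SPL8* alone was, at 0.82 in WT IM and 1.67 in WT control.

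The largest difference in the other direction belonged to *MT2A* (AT3G09390), a metallothionein that binds metal ions, with 10680 in WT IM and 1806 in WT control. Its relative *MT2B* (AT5G02380) had 6332 in WT IM and 3612 in WT control, which is within 2-fold. *AT1G76960*, a gene of unknown function, stood at 1575 in WT IM and 49.6 in WT control. The catalase *CAT3* (AT1G20620), the glutathione S-transferase *GSTF2*, the cold-regulated chloroplast protein gene *COR15A*, the glycine-rich protein genes *GRP-3* and *GRP3S*, *AT1G23130* and *UBQ10* made up the rest of the 10 largest of these differences. Of these *GSTF2* had the largest ratio, with 1205 in WT IM and 135 in WT control.

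By ratio, the genes at the top of the scale with an FPKM of at least 10 in one group and at least 1 in both were led by *AT2G37870*, which encodes a protein of the lipid transfer type and had 590 in WT IM and 2.81 in WT control. *CHI* (AT2G43570), a chitinase, followed with 396 in WT IM and 2.25 in WT control. *DIP2* (AT5G03210) had 346 in WT IM and 2.33 in WT control. The remaining 12 of the 15 highest ratios included 3 more proteins of the lipid transfer type, *LTP3*, *AT4G33550* and *AT3G22600*, the anthocyanin regulator *MYB90*, the mannose-binding lectin gene *AT1G73040*, the small heat shock protein gene *AT5G51440*, and *AHP4*, a phosphotransmitter of cytokinin signalling, all with log2 ratios of 5.79 or more. At the other end, *AT2G10940*, another protein of the lipid transfer type, had 14.3 in WT IM and 1808 in WT control, after *GER3*, a germin-like protein, with the lowest log2 ratio of -8.28. The acid phosphatase gene *AT5G44020* had 1.30 in WT IM and 132 in WT control. The copper amine oxidase gene *AT1G31690* had 1.60 in WT IM and 111 in WT control, the glutaredoxin gene *AT1G06830* had 1.17 and 46.2, and *BT2* (AT3G48360), a scaffold protein with a BTB domain, had 3.88 and 140, in the same order.

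The promoters of the genes at both ends were read from the TAIR10.1 assembly as the 250 bases before the RefSeq gene start, and searched on both strands for short motifs. The letters ACGTG, the core of the abscisic acid response element bound by bZIP factors, occurred in 35.6% of the 1042 windows of protein-coding genes at least 4-fold higher in WT IM, in 23.0% of the 1225 windows of genes at least 4-fold lower, in 22.4% of those within 2-fold and in 22.9% of all 27437 windows. For genes at least 10-fold higher the share was 40.2%, of 518 windows. The longer CACGTG, the G-box, which contains ACGTG on both strands, occurred in 11.1% of the windows at least 4-fold higher and in 6.49% of all windows. TTGAC, the core of the W-box bound by WRKY factors, occurred in 54.2% of the windows at least 4-fold higher, 42.0% of those at least 4-fold lower and 44.9% of all. CATGTG, an element bound by MYC-type factors, occurred in 12.4% of the windows at least 4-fold higher, 14.7% of those at least 4-fold lower and 11.1% of all, and in 12.5% of those at least 10-fold higher and 19.9% of the 307 at least 10-fold lower. GGCCCA, the site II element of growth genes, occurred in 9.79% of the windows at least 4-fold higher, 11.4% of those at least 4-fold lower, 18.7% of those within 2-fold and 13.7% of all. Mean GC content lay between 31.1% and 31.9% in each of these sets. These shares describe letters and not bound sites, and the motifs singled out here were chosen after their shares were seen.

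Of the 15 highest ratios 9 had ACGTG in the window. The windows of 3 of them with more than 1 match follow, 5′ to 3′ and ending at the base before the gene start, with ACGTG or its reverse complement in capitals.
*CHI*, chr2:18077518-18077767, minus strand: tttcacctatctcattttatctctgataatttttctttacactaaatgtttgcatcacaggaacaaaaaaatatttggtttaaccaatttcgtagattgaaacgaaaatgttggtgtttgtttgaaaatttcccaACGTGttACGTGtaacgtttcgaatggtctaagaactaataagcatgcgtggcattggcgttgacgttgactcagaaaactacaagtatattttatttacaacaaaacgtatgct
*DIP2*, chr5:763481-763730, minus strand: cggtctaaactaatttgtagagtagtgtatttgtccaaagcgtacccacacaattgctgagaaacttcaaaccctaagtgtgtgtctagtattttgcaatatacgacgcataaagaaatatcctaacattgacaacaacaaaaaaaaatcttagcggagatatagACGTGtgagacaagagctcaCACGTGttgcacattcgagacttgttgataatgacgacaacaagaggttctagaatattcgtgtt
*MYB90*, chr1:24763691-24763940, plus strand: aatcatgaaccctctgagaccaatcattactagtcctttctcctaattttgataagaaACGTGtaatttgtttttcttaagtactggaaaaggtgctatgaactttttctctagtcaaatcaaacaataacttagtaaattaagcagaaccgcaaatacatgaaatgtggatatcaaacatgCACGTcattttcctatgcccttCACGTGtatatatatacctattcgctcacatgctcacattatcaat
The windows of *DIP2* and *MYB90* each hold CACGTG once, which gives a pair of overlapping matches.

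Of 13 windows among the 15 lowest ratios 3 had CATGTG, and that of *GER3*, the lowest of all, holds 2 matches, shown in capitals on either strand. ACGTG was marked only in windows of the highest ratios and CATGTG only in those of the lowest. Unmarked, ACGTG or its reverse complement also occurs in the windows of *GER3*, *AT2G10940* and *EXPA16*, all among the lowest. The reverse complement of CATGTG also occurs, unmarked, in the window of *MYB90* above.
*GER3*, chr5:6976037-6976286, minus strand: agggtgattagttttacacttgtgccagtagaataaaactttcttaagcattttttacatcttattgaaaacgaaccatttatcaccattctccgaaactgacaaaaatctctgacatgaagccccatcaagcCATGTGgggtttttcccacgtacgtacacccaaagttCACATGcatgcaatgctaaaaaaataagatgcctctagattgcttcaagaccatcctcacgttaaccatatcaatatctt

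In primary metabolism, 39 of 251 listed genes (15.5%) were at least 2-fold higher and 68 (27.1%) at least 2-fold lower, against 15% and 19.1% of all genes. Starch metabolism had no common direction. Of 20 genes of starch breakdown 4 were at least 2-fold higher and none lower, with a median of 0.04. *ISA3*, a debranching enzyme, had 312 in WT IM and 72.0 in WT control, and *SEX4*, the phosphatase that removes phosphate from glucans, had 396 and 95. *BAM1* (AT3G23920), a beta-amylase, had 100.4 in WT IM and 46.8 in WT control, whereas the main leaf beta-amylase *CT-BMY* had 421 and 637. Among 15 genes of starch synthesis the isoforms parted. The large subunits of ADP-glucose pyrophosphorylase lay on both sides, with *APL3* at 386 in WT IM and 36.8 in WT control, *APL4* at 72.1 and 6.78, and the leaf form *APL1* at 55.8 and 203. *GBSS1*, which makes amylose, had 147 in WT IM and 9.36 in WT control. The plastid phosphoglucomutase *PGM* had 71.8 in WT IM and 196 in WT control.

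Sucrose and trehalose metabolism and glycolysis differed in single genes. The sucrose synthase *SUS3* had 28.6 in WT IM and 2.97 in WT control, while the vacuolar invertase *ATBETAFRUCT4* had 15.4 and 71.9. The cytosolic fructose bisphosphatase *FBP*, an enzyme of sucrose synthesis, had 120 in WT IM and 342 in WT control. The sucrose phosphate synthase *SPS1F*, the most abundant transcript of its kind, had 180 and 106, which is within 2-fold. Of 24 genes of glycolysis 18 stayed within 2-fold, and the phosphofructokinases *PFK2* and *PFK3* were the highest by ratio, at 16.4 in WT IM and 3.13 in WT control and at 37.4 and 11.8. The phosphoenolpyruvate carboxylase *PPC2* had 122 in WT IM and 335 in WT control. Of 23 genes of the TCA cycle and gluconeogenesis 5 were at least 2-fold higher and 2 lower. *PPDK*, which remakes phosphoenolpyruvate from pyruvate, had 89.3 in WT IM and 22.7 in WT control, and the peroxisomal citrate synthase *CSY3* had 41.9 and 10.4. The peroxisomal malate dehydrogenase *PMDH2* had 364 in WT IM and 872 in WT control. The class II trehalose phosphate synthase *TPS5* had 77.6 in WT IM and 25.3 in WT control, and the phosphatase *ATTPPA* had 3.90 and 16.8.

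In lipid metabolism the genes of synthesis were mostly lower. Of 23 genes of fatty acid synthesis and desaturation, most of them of the plastid, 14 were at least 2-fold lower and none higher, with a median log2 ratio of -1.34, against 0.01 over all genes. *ACP4*, an acyl carrier protein of leaves, had 72.4 in WT IM and 596 in WT control. *BCCP2*, the biotin carrier of plastid acetyl-CoA carboxylase, had 2.13 in WT IM and 22.6 in WT control. The plastid desaturase *FAD8* had 10.08 in WT IM and 103 in WT control, whereas *FAD2* of the endoplasmic reticulum had 222 and 317. Of 32 genes of cuticular wax and cutin 23 were at least 2-fold lower and 1 higher, with a median of -1.72. *GPAT8*, an acyltransferase of cutin synthesis, had 1.59 in WT IM and 37.2 in WT control. *KCS1*, which elongates very long chain fatty acids, had 6.09 in WT IM and 113 in WT control, and *KCS5* had 2.94 and 43.6. *KCS6*, the main elongase of stem and leaf wax, had 111 in WT IM and 146 in WT control, within 2-fold. None of 18 genes of peroxisomal beta-oxidation was 2-fold lower and 3 were at least 2-fold higher, with a median of 0.45. The peroxisomal acyl-CoA synthetase *LACS7* had 38.3 in WT IM and 8.84 in WT control, and the thiolase *KAT5* had 227 and 81.2.

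Nitrogen and sulfur genes included members at both ends. *NIA1*, a nitrate reductase, had 10.4 in WT IM and 67.0 in WT control, and the nitrite reductase *NIR1* that follows it had 96.9 and 379. The plastid glutamine synthetase *GS2* had 535 in WT IM and 1965 in WT control. *GDH2*, a glutamate dehydrogenase known to release ammonium from glutamate, had 90.8 in WT IM and 20.7 in WT control. Of the 22 genes of this list 4 (18.2%) were at least 2-fold higher and 8 (36.4%) lower, against 15% and 19.1% of all genes. Among 27 genes of sulfate assimilation 4 (14.8%) were at least 2-fold higher and 5 (18.5%) lower, close to the shares over all genes. The sulfur deficiency genes *LSU1* and *ATSDI1* were the highest, with 119 in WT IM and 4.62 in WT control for *LSU1* and 50.4 and 3.44 for *ATSDI1*. The methionine synthase *ATMS1* had 308 in WT IM and 986 in WT control.

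Genes for the breakdown of lysine, threonine, methionine, proline, tyrosine, asparagine and arginine formed the list of primary metabolism with the highest median, 0.94 over 15 genes, of which 7 were at least 2-fold higher, 6 of them at least 4-fold, and 1 was lower. *THA1*, a threonine aldolase, had 23.3 in WT IM and 0.48 in WT control. *MGL*, the methionine gamma-lyase, had 93.4 in WT IM and 11.3 in WT control. *AT4G33150*, the bifunctional enzyme that opens lysine breakdown, had 33.4 in WT IM and 3.71 in WT control. *PDS1*, a dioxygenase of tyrosine breakdown, had 49.1 in WT IM and 11.0 in WT control. The arginase *ARGAH2* had 84.0 in WT IM and 66.3 in WT control. Of 15 genes of energy and sugar signalling 3 (20%) were at least 2-fold higher and 3 (20%) lower, against 15% and 19.1% of all genes. *DYL1*, a dormancy-associated gene repressed by sugar, had 174 in WT IM and 32.8 in WT control, while the dark-inducible *DIN10* had 2.63 and 6.11.

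**Figure D2:**
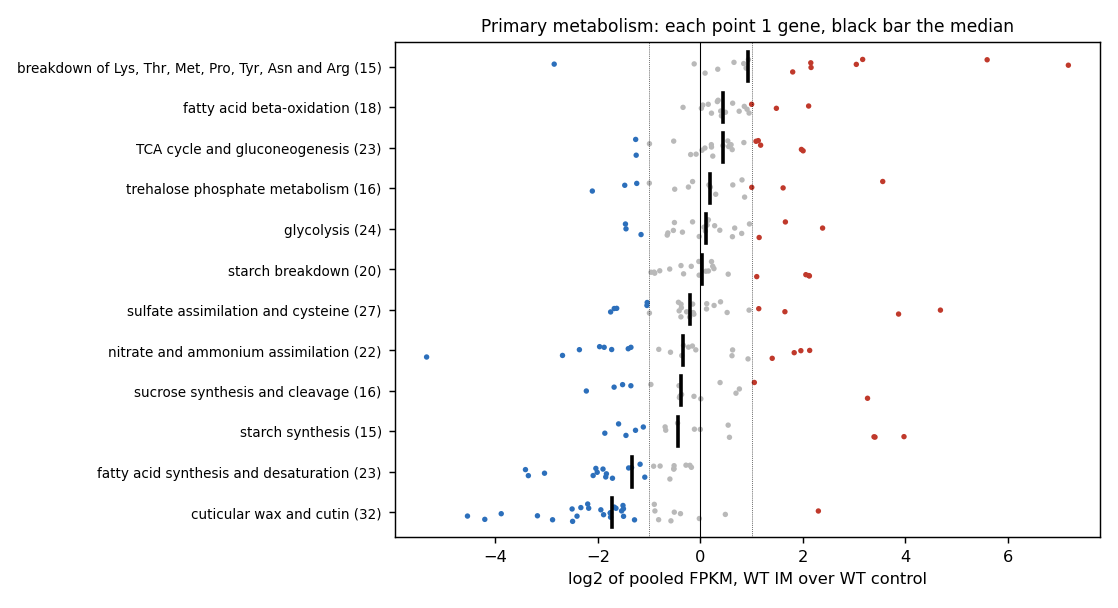
Log2 ratio of pooled FPKM, WT IM over WT control (horizontal), for the 251 genes of 12 lists of primary metabolism, with the number of genes in brackets, a black bar at the median and dotted lines at 2-fold. The breakdown of lysine, threonine, methionine, proline, tyrosine, asparagine and arginine has the highest median, 0.94, and cuticular wax and cutin the lowest, -1.72.

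Of 579 transporter and lipid transfer genes 118 (20.4%) were at least 2-fold higher and 124 (21.4%) at least 2-fold lower, against 15% and 19.1% of all genes, and single members lay among the most extreme genes. None of the 10 expressed SWEET sugar exporters stayed within 2-fold, as 4 were higher and 6 lower. *SAG29*, a SWEET protein of senescing leaves, had 22.3 in WT IM and 0.13 in WT control, and *SWEET13* had 21.8 and 1.38. *SWEET11* and *SWEET12*, which load sucrose into the phloem, had 75.3 and 46.9 in WT IM, against 151 and 99.2 in WT control. Their log2 ratios of -1.004 and -1.079 lie just past 2-fold, and scaling both groups to the same sum moves them within it. The median of this family, -1.04, became 0.32 when only members with an FPKM of at least 5 in one group were kept. The phloem loader *SUC2* had 145 in WT IM and 152 in WT control. Of the hexose and polyol transporters, *MSS1*, a high-affinity hexose importer also known as STP13, had 71.9 in WT IM and 8.75 in WT control, while the hexose importer *STP1* had 9.64 and 35.6.

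Exchange across the plastid envelope differed by translocator. *GPT2*, which carries glucose 6-phosphate, was at 348 in WT IM and 2.52 in WT control. The triose phosphate translocator *APE2*, the main exit for photosynthate from the chloroplast, had 240 in WT IM and 746 in WT control. *PPT2*, which carries phosphoenolpyruvate, had 0.85 in WT IM and 19.1 in WT control, and *NTT1*, which brings ATP into the plastid, had 151 and 64.1. In mitochondria, the ADP/ATP carrier *AAC3* had 36.4 in WT IM and 3.39 in WT control and the basic amino acid carrier *BAC2* had 5.82 and 0.38. The most abundant carrier *AAC1* had 878 in WT IM and 1377 in WT control.

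Among the importers of amino acids 10 of 45 genes were at least 2-fold higher and 8 lower, with a median of -0.09. *LHT7* had 8.25 in WT IM and 0.66 in WT control. *ProT3*, a proline and betaine transporter, had 0.70 in WT IM and 25.9 in WT control. The UmamiT family, which exports amino acids from cells, had 10 of 35 genes (28.6%) at least 2-fold higher and 5 (14.3%) lower, of which *UMAMIT40* had 16.8 in WT IM and 4.53 in WT control. *NRT1.7*, which moves nitrate out of old leaves into the phloem, had 179 in WT IM and 82.1 in WT control. *AT1G52190*, a related nitrate transporter, had 3.80 in WT IM and 32.0 in WT control.

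Of 48 calcium pumps, exchangers and cation channels 10 (20.8%) were at least 2-fold higher, 8 of them at least 4-fold, and 2 (4.17%) lower, while the median was close to 0. The exchanger *CAX7* had 37.6 in WT IM and 2.22 in WT control, the vacuolar exchanger *CAX3* had 89.2 and 10.8, and the calcium pump gene *AT3G63380* had 17 and 1.02. *CAX1*, the most abundant of them, had 220 in WT IM and 277 in WT control. Of 49 zinc, iron and copper transporters 9 (18.4%) were at least 2-fold higher and 8 (16.3%) lower. The zinc transporter *ZIP4* (AT1G10970) had 50.3 in WT IM and 6.51 in WT control, and *NRAMP3*, which releases iron from the vacuole, had 22.8 and 4.07. The oligopeptide transporter *OPT3*, which loads iron into the phloem, had 58.7 in WT IM and 165 in WT control, and its relative *OPT4* had 1.24 and 12.3. *PHT3;2*, a mitochondrial phosphate carrier, had 18 in WT IM and 0.27 in WT control, whereas the plastid phosphate transporter *PHT2;1* had 40.01 and 161. No vacuolar proton pump subunit was 2-fold higher, and the pyrophosphatase *AVP1* had 212 in WT IM and 603 in WT control.

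The MATE and ABC families, which export metabolites and foreign compounds, held some of the widest ratios. Of 40 MATE carriers 13 (32.5%) were at least 2-fold higher and 9 (22.5%) lower. The neighbours *AT2G04050* and *DTX1* (AT2G04040) had 164 and 45.0 in WT IM, against 0.67 and 0.25 in WT control, and *AT2G04070* had 84.7 in WT IM and 0.59 in WT control. These copies are alike and may share reads. Of 87 ABC transporters 60 stayed within 2-fold. *ABCC3*, a vacuolar carrier of glutathione conjugates, had 229 in WT IM and 18.2 in WT control. *ABCG40*, an importer of abscisic acid, had 47.3 in WT IM and 0.88 in WT control, and the auxin transporter *ABCB4* had 48.2 and 1.8.

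Proteins of the lipid transfer type were divided, with 17 of 50 (34.0%) at least 2-fold higher, 21 (42.0%) lower and 12 within 2-fold. *LTP3* and *LTP4*, which lie side by side on chromosome 5, had 678 and 494 in WT IM, against 4.07 and 0.41 in WT control. The most abundant member *LP1* had 1378 in WT IM and 1875 in WT control. Of 14 auxin transporters 6 were at least 2-fold lower and 2 higher, with a median of -0.80, and the influx carriers *AUX1* and *LAX3* had 11.9 and 1.95 in WT IM, against 40.5 and 9.62 in WT control.

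**Figure D3:**
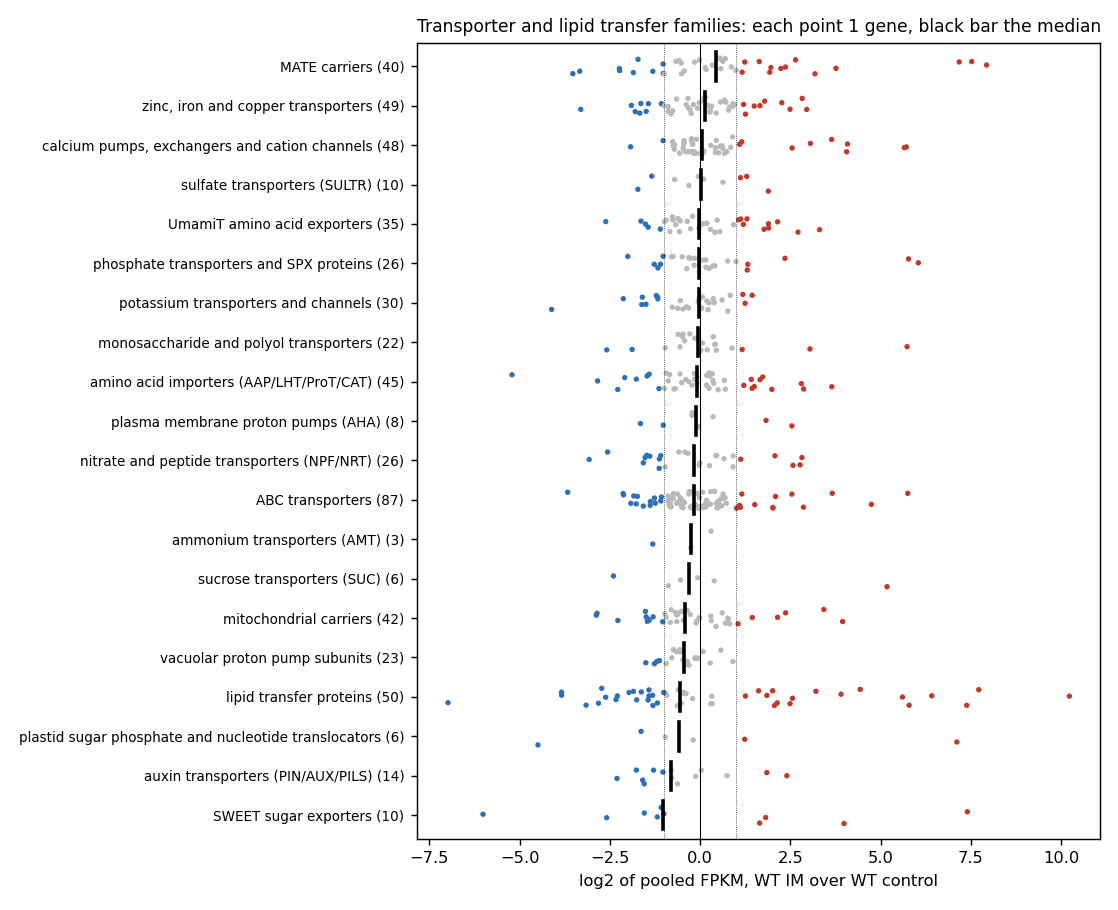
Log2 ratio of pooled FPKM, WT IM over WT control (horizontal), for 578 of 580 entries in 20 transporter and lipid transfer families, where 2 entries at 0 in one group are not drawn. The medians lie between -1.04 for the SWEET exporters and 0.44 for the MATE carriers, while *LTP4* reaches 10.22 and *AT2G10940* reaches -6.98.

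The cell wall was the block with the largest share of lower genes, 197 of 408 (48.3%), against 19.1% of all genes, and 56 (13.7%) were at least 2-fold higher. Of 18 families, 15 had a median at or below -0.5. The class III peroxidases had a median above 0, and the callose synthases and extensins had medians of -0.38 and -0.25, which scaling to the same sum turned positive. Expansins, which loosen walls so that cells can enlarge, had the lowest median at -2.08, with 12 of 19 at least 2-fold lower. *EXPA6* had 23.6 in WT IM and 136 in WT control and *EXPB1* had 0.94 and 13.2. *EXPA10* had 133 in WT IM and 107 in WT control. The only expansin at least 2-fold higher was *EXLB1*, with 144 in WT IM and 34.3 in WT control.

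Xyloglucan endotransglucosylase/hydrolases, which cut and rejoin the glycans between cellulose fibres, had 11 of 22 genes lower, each of them by at least 4-fold, and 3 higher. *TCH4* had 4.60 in WT IM and 117 in WT control, *XTH9* had 26.3 and 295, and *XTH4* had 20.5 and 201. Of 8 cellulose synthases 5 were at least 2-fold lower and none higher. *CESA1* and *CEV1*, the gene of CESA3, both of the primary wall, had 61.3 and 69.5 in WT IM, against 128 and 147 in WT control. *CESA5* had 33.0 in WT IM and 129 in WT control. Of 22 cellulose synthase-like genes 13 were at least 2-fold lower, such as *CSLC04*, a xyloglucan backbone synthase, at 9.99 in WT IM and 55.2 in WT control, while *CSLG2* had 25.7 and 0.30.

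Arabinogalactan and fasciclin-like proteins, glycoproteins of the wall and cell surface, had the largest share of lower genes of any wall family, 31 of 40 (77.5%), with a median of -1.99. *AGP21* had 21.4 in WT IM and 557 in WT control, *AGP17* had 4.35 and 94.4, and *AT4G16980* had 44.3 and 895. The abundant *AGP15* had 645 in WT IM and 1227 in WT control, within 2-fold. Structural proteins showed large single differences. *PRP4* had 144 in WT IM and 1102 in WT control, *ELP* had 125 and 1034, and *LRX3*, a leucine-rich extensin that monitors the wall, had 6.18 and 87.5. Of the 11 extensins and proline-rich proteins 4 were at least 2-fold lower and 3 higher.

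Pectin enzymes held many of the lower genes. Of 46 pectin lyase-like proteins, which include pectate lyases and polygalacturonases, 27 (58.7%) were at least 2-fold lower and 4 higher, and *PG2* had 24.9 in WT IM and 142 in WT control. Of 39 pectin methylesterases and inhibitors 15 (38.5%) were lower and 5 higher. *PME5* had 5.65 in WT IM and 109 in WT control, and *PME3* had 113 and 282, whereas *AT2G45220* had 15.8 and 0.49. Of 25 genes of pectin synthesis 10 were at least 2-fold lower and 1 higher, and the galacturonosyltransferase *GAUT1* had 21.5 in WT IM and 54.8 in WT control. Beta-1,3-glucanases, which cut callose, had 13 of 26 lower and 12 within 2-fold. The 1 member at least 2-fold higher was *BGL2*, the pathogenesis-related PR2, with 304 in WT IM and 11.8 in WT control. Of 33 wall glycosidases 18 (54.5%) were at least 2-fold lower and 2 higher, among them the beta-galactosidase *BGAL1* with 17.6 in WT IM and 73.0 in WT control. Of 13 proteins of the Ole e 1 and extensin type 9 were lower and 2 higher. *COB*, an anchored protein that orients cellulose, had 43.4 in WT IM and 114 in WT control. Of 9 germin-like proteins 3 were at least 2-fold lower, 4 within 2-fold and 2 higher, both by at least 4-fold. The members *GER3* (AT5G20630) and *GER1* (AT1G72610) had 10.6 and 179 in WT IM, against 3294 and 2923 in WT control.

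Class III peroxidases, which cross-link wall polymers and form reactive oxygen, differed from these families, with 19 of 36 (52.8%) at least 2-fold higher, 14 of them at least 4-fold, and 6 (16.7%) lower, and a median of 1.14. *PRXCB* had 697 in WT IM and 157 in WT control, and *PRX52* had 15.5 and 0.80. *Prx37* had 9.70 in WT IM and 0.49 in WT control. The most abundant member *PRXR1* had 2003 in WT IM and 1668 in WT control. *DOX1*, which RefSeq names in this superfamily but which encodes an alpha-dioxygenase, had 8.35 in WT IM and 0.21 in WT control.

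**Figure D4:**
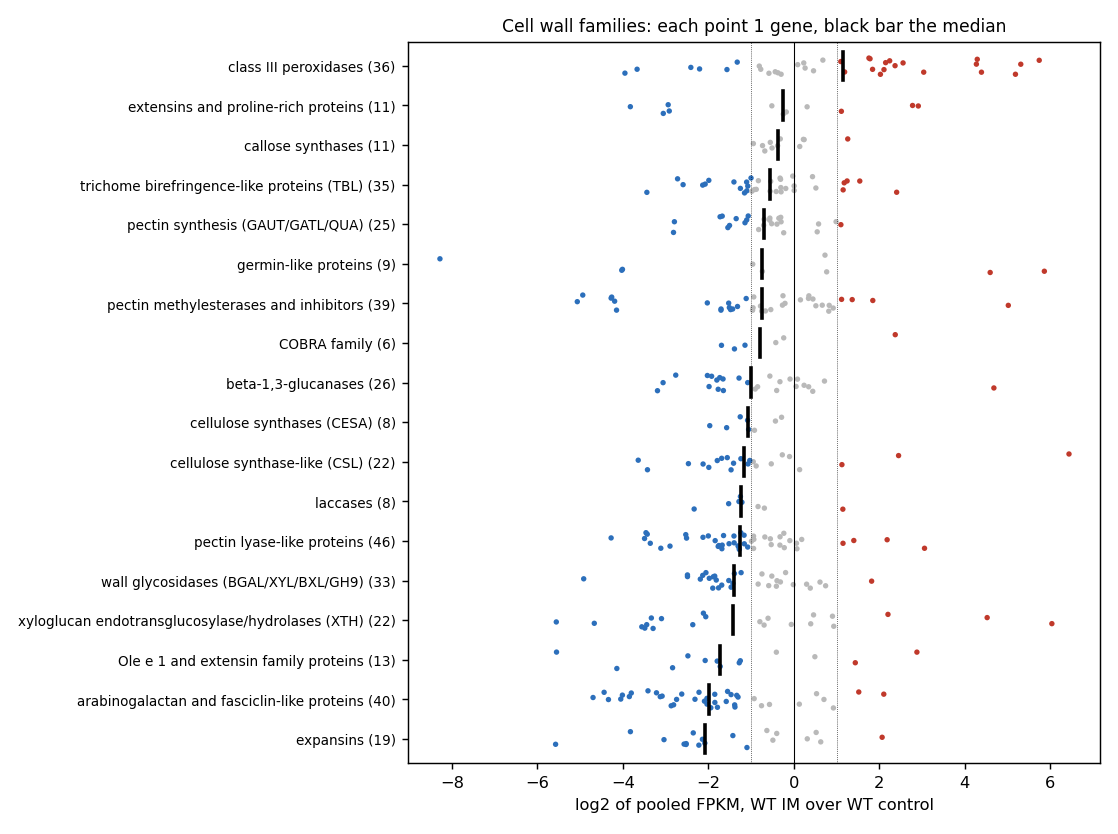
Log2 ratio of pooled FPKM, WT IM over WT control (horizontal), for 406 of 409 entries in 18 cell wall families, where 3 entries at 0 in one group are not drawn. With the values as deposited, the class III peroxidases alone have a median above 0, at 1.14, and the expansins have the lowest, at -2.08.

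For the families of growth and protein synthesis that follow, the shares over all genes were 15% at least 2-fold higher and 19.1% lower. Of 16 tubulins, the subunits of microtubules, 11 were at least 2-fold lower and none higher, with a median of -1.72. *TUA6* had 121 in WT IM and 486 in WT control. Of 17 plastid ribosomal proteins 12 were at least 2-fold lower and none higher, with a median of -2.10. *PRPL11* had 102 in WT IM and 687 in WT control. Cytosolic ribosomal proteins had 57 of 67 within 2-fold, a median of 0.03 and summed FPKM of 18231 in WT IM and 17867 in WT control. Of 45 aminoacyl-tRNA synthetases 30 stayed within 2-fold, 5 (11.1%) were higher and 10 (22.2%) lower. *OVA2* and *EDD1*, both of organelles, had 22.1 and 15.1 in WT IM, against 81.8 and 54.2 in WT control, while *AT1G17960*, a threonyl-tRNA synthetase, had 21.4 in WT IM and 0.16 in WT control. SAUR genes, early auxin targets that promote expansion, had 24 of 47 at least 2-fold lower and 8 higher. *AT4G34760* had 4.51 in WT IM and 65.4 in WT control, whereas *SAUR36*, a gene of leaf senescence, had 9.17 and 0.51.

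Of 828 genes in families listed with the transcription factors 195 (23.6%) were at least 2-fold higher and 177 (21.4%) lower. Over all genes the shares were 15% and 19.1%, and the families differed in their counts. NAC factors, many of which act in senescence and drought, had the largest share of higher genes of these families, with 34 of 66 (51.5%) at least 2-fold higher, 23 of them at least 4-fold, and 2 lower, and a median of 1.32. *NAC044* had 21.1 in WT IM and 0.33 in WT control. *NAC6*, also known as ORE1 and a regulator of leaf death, had 15.1 in WT IM and 0.27 in WT control, and *NAC016*, which promotes senescence, had 6.88 and 0.15. *ATAF2*, one of the most abundant, had 101 in WT IM and 22.8 in WT control. Another 30 NAC genes lay within 2-fold.

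WRKY factors, known mostly from defence and senescence, had 24 of 51 (47.1%) at least 2-fold higher and 3 lower, with a median of 0.95. *WRKY75* had 32.2 in WT IM and 0.21 in WT control, *WRKY45* had 18.2 and 1.10, and *WRKY60* had 28.1 and 2.40. The most abundant, *WRKY70*, a node of salicylic acid signalling, had 88.1 in WT IM and 162 in WT control. The bZIP family, which holds some of the factors that bind ACGTG, had 20 of 58 (34.5%) at least 2-fold higher and 8 (13.8%) lower. *GBF3* had 38.0 in WT IM and 2.83 in WT control, *ABI5*, a factor of abscisic acid signalling, had 10.09 and 1.45, and *BZIP60*, of the unfolded protein response, had 94.4 and 35.4. At the low end *BZIP34* had 0.26 in WT IM and 10.13 in WT control and *BZIP61* had 0.86 and 13.1. Of 27 NF-Y subunits 11 were at least 2-fold higher and 3 lower, among them *NF-YA5* at 10.3 in WT IM and 1.41 in WT control and *NF-YA7* at 39.3 and 6.2.

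Large families with mixed roles had genes at both ends. AP2/ERF factors had 29 of 84 at least 2-fold higher and 22 lower. *DREB19*, of the dehydration-responsive subgroup, had 22.3 in WT IM and 0.21 in WT control, *ERF71*, of the hypoxia subgroup, had 7.23 and 0.18, and *ERF53* had 0.20 and 5.27. R2R3 MYB factors had 19 of 69 higher and 21 lower. *MYB90*, which turns on anthocyanin synthesis, had 98.1 in WT IM and 1.14 in WT control, *MYB112* had 14.3 and 0.56, and *MYB77*, of auxin responses, had 3.27 and 57.0. The bHLH *TT8*, a partner of MYB90-type factors, had 29.98 in WT IM and 2.34 in WT control, although 27 of 96 bHLH genes were at least 2-fold lower and 14 higher. Homeodomain factors had 12 of 45 lower and 6 higher, and the drought-responsive *HB-7* (AT2G46680) and *HB-12* had 155 and 141 in WT IM, against 13.1 and 12.3 in WT control.

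Families of leaf growth and cytokinin response lay at the low end. Of 15 response regulators 9 were at least 2-fold lower and none higher. Their median of -1.35 was the lowest of the 23 families listed with the transcription factors. The type-A members, early targets of cytokinin that lack a DNA-binding domain and are not transcription factors themselves, accounted for the lowest. *ARR15* had 0.68 in WT IM and 11.9 in WT control, and *ARR6* had 0.80 and 10.2. *ARR7* had 9.73 and 42.1 and *ARR4* had 30.9 and 122, in the same order. Of 11 growth-regulating factors and their interactors 7 were at least 2-fold lower and 1 higher, and *GRF4* had 1.67 in WT IM and 15 in WT control and *AN3* had 6.50 and 18.8. Of 17 TCP factors 12 were within 2-fold, 5 (29.4%) at least 2-fold lower and none higher, with a median of -0.56. *TCP4* had 13.1 in WT IM and 62.0 in WT control. Auxin response factors hardly differed, with 14 of 15 within 2-fold, and *ARF2* had 112 in WT IM and 93.9 in WT control. *IAA6* was the lowest of the Aux/IAA repressors, at 0.19 in WT IM and 6.76 in WT control, while 7 of 24 were at least 2-fold higher.

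In the remaining families most genes lay within 2-fold, as did 65.9% of all genes, but GATA and GRAS had larger shares of lower genes than the 19.1% over all. Of 31 GATA factors 18 were within 2-fold, 12 (38.7%) at least 2-fold lower and 1 higher. Among them *BME3*, known from seed germination, had 18.3 in WT IM and 108 in WT control. Of 29 GRAS proteins 16 were within 2-fold, 10 (34.5%) lower and 3 higher, and the DELLA repressor *RGL1* had 8.42 in WT IM and 28.4 in WT control. Of 62 C2H2 zinc finger factors 43 were within 2-fold, although *ZAT6*, a stress-responsive repressor, had 25.7 in WT IM and 4.03 in WT control. The SBP factors *SPL4* and *SPL9*, which promote the change to flowering, lay on opposite sides, with 32.5 and 3.51 in WT IM, against 6.33 and 9.59 in WT control. Of 17 heat shock factors 12 were within 2-fold, 4 were at least 2-fold higher and 1 lower. Of 3 expressed markers of the shoot meristem none was past 2-fold, and *STM* had 4.58 in WT IM and 3.93 in WT control.

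**Figure D5:**
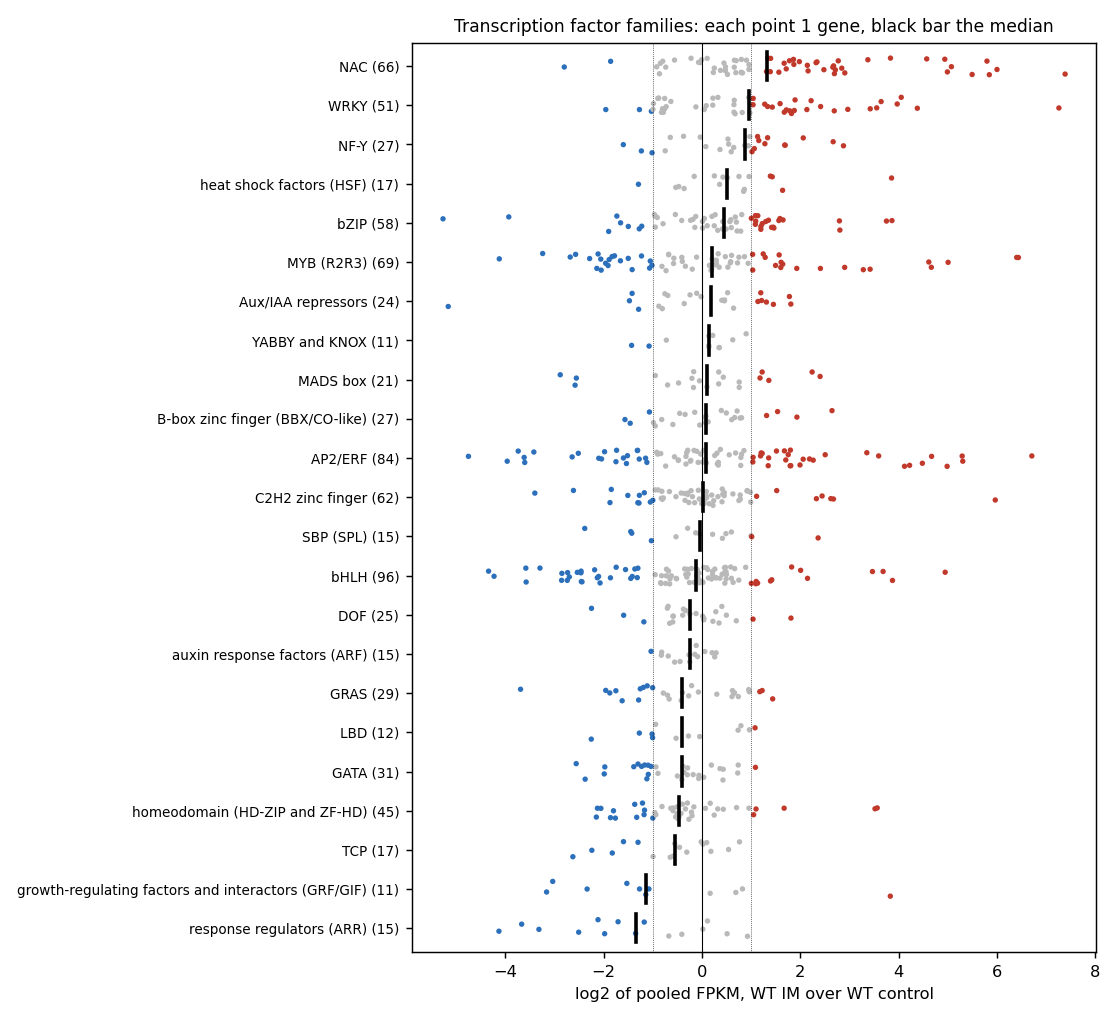
Log2 ratio of pooled FPKM, WT IM over WT control (horizontal), for 824 of 828 genes in 23 families listed with the transcription factors, where 4 genes at 0 in one group are not drawn. NAC has the highest median, 1.32, followed by WRKY and NF-Y, and the response regulators have the lowest, -1.35.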

How the data were processed

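RNA-seq libraries of whole rosettes (Illumina HiSeq2500, single-end reads of 100 bases, a kit that does not mark strand) were processed by the authors with FastQC 0.10.1, Bowtie2, TopHat2 and Cufflinks against TAIR10. The deposited FPKM values were estimated by the authors with Cuffdiff for each group over its 2 libraries, so depth per library was not analysed here. The tables also hold the authors' fold changes, test statistics, p-values and q-values, which were not used.

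Log2 ratios of WT IM over WT control were computed with no pseudocount (Python 3.11.15, pandas 2.3.3, NumPy 2.4.6) and checked on simulated data. The main table covers 31402 genes and ends on chromosome 5. Values of genes in both tables were equal. Another 1072 genes came from a sheet of genes that the authors called, of which 1054 passed the minimum, 20.7% of them at least 2-fold higher and 27.4% lower, against 14.7% and 18.6% in the complete part. Reads of overlapping genes, antisense genes and close copies may be shared.

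Gene lists were written from known pathways, families were matched by RefSeq names (TAIR10.1, 98.7% of identifiers matched) and corrected by name, and 9 listed genes without a matching symbol were left out. Families are as complete as those names. Members, lists and families were chosen with earlier results of these data known. Named genes are the 15 highest and 15 lowest ratios with an FPKM of at least 10 in one group and 1 in both, the 10 largest FPKM differences each way, the target, and of each list up to 4 members by ratio with an FPKM of at least 5 in one group, and 2 by level.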

Additional observations from a re-analysis of the deposited data

How the results depend on the processing

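Pseudocounts of 0.1 and 1, minimums of 1 in both groups or 5 in one, centring on the median of all genes, the complete part of the table alone, all tables together and leaving out suffixed identifiers kept both counts of genes past 2-fold within 1.5 times of the reported ones. With a threshold of 1.5-fold 4770 genes were higher and 5242 lower, and with 4-fold 1098 were higher and 1261 lower. With no minimum FPKM 4437 were higher and 4814 lower. Scaled to the same FPKM sum, 4837 genes were higher and 2301 lower and the median was 0.44. Centred on the reference genes, 3206 were higher and 3128 lower, so 50.6% of those past 2-fold were higher in place of 44.0%, and the median was 0.13. The median of the SWEET exporters became 0.32 with an FPKM of at least 5 in one group. The medians of 61 of 86 lists kept their sign under sum scaling and those of 80 under centring on the reference genes, and of the 38 at least 0.5 from 0, 37 kept it with no minimum FPKM. No paired analysis was possible because the tables hold only values pooled over both libraries of a group, so leaving out single libraries was not possible either. No flower or pollen marker was left under either stricter minimum, and no shoot meristem marker with a minimum of 5. Precision at low FPKM is not known, since neither depth nor spread was given.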

Other observations

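The share of genes past 2-fold differed with level. Among the 2752 genes with a mean FPKM under 3 over both groups, 27.7% were at least 2-fold higher in WT IM and 25.9% lower. Among the 5891 genes with a mean from 10 to 30, the shares were 11.9% and 13.8%, and among the 1456 with a mean from 100 to 1000 they were 10.03% and 28.9%. The median log2 ratio in these groups was 0.08, 0.06 and -0.23. By span of the gene on the genome, the shortest genes, up to the first quartile, had 23.8% of genes higher and 23.7% lower, and those above the last quartile 9.59% and 16.3%.

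Genes outside the protein-coding class were few. For comparison, of all 18424 genes 15% were at least 2-fold higher in WT IM and 19.1% lower. Of 97 genes that RefSeq lists as other noncoding RNA 38 were at least 2-fold higher in WT IM and 9 lower, with a median log2 ratio of 0.55. Of 138 long noncoding RNAs 24 were higher and 16 lower, with a median of 0.26, and of 95 transcribed pseudogenes 26 were higher and 11 lower, with a median of 0.40. Many such genes overlap others, and the libraries do not mark strand. Of 29 cysteine-rich receptor-like kinases, proteins of defence and cell death, 13 (44.8%) were at least 2-fold higher and 5 (17.2%) lower. *CRK36* had an FPKM of 19.7 in WT IM and 0.54 in WT control, and *CRK6* had 22.4 in WT IM and 2.86 in WT control. *CRK42* had 2.11 in WT IM and 15.1 in WT control.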
